A study of Mus musculus with 4 samples.

Results

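In cervical motor neurons (MNs) made from mouse cells without PATZ1, 18 genes were counted at 20 or more reads in both libraries while both wild type (WT) libraries held 6 or fewer. They were chosen by this rule on the raw counts, after symbols of the *Hox*, *Col*, *Kcn* and *Pcdh* families had been set aside, and the 18 are 0.0769% of the 23420 symbols in the count tables. The name filter removed no gene that would have qualified, although 251 symbols carried such a name. Since the counts themselves picked these genes, their values are given as a description without a test, and a ratio between the groups tends to be larger than it would be for genes picked without looking at them. The 18 are *Cpne6*, *Nkx1-2*, *Pla2g2f*, *Fam131c*, *Il1rapl2*, *Slc6a5*, *C1ql4*, *Efcab6*, *Clcf1*, *Ppp1r3g*, *Serpina3n*, *Cacna1i*, *Pcsk4*, *Ak8*, *Pax8*, *Guca1a*, *Spats1* and *4930444P10Rik*. All 18 are annotated as protein coding, and they lie on 12 chromosomes.

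The libraries come from E14 mouse embryonic stem cells (mESCs), either WT (2 libraries) or *Patz1* -/- (*Patz1* KO, 2 libraries), that were differentiated into cervical MNs. All 4 cultures passed through embryoid bodies and were patterned with 1 µM all-trans retinoic acid and 0.5 µM smoothened agonist added on day 2, agents that give spinal cells a caudal and a ventral identity. *Patz1* encodes a zinc finger protein that the study examined as a chromatin insulation factor. The study made several *Patz1* KO lines with CRISPR, no label tells which line a library came from, and replicates were independent differentiations, so a property of the line and the loss of PATZ1 cannot be told apart.

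The libraries held 14769104 and 15728158 reads in WT against 23881522 and 17402342 in *Patz1* KO. *Patz1* itself had 1363 and 1499 reads in WT against 1154 and 714 in *Patz1* KO (log2 fold change -1.04, standard error 0.095, edgeR), so its transcripts were lower but still present. All 10 markers of MNs were detected, and 8 were higher and 0 lower in *Patz1* KO. Their summed levels were 697 to 744 CPM (reads scaled to the library size) in WT and 1058 to 1155 CPM in *Patz1* KO. In a wider list of MN genes, 15 of 25 tested were higher and 3 lower, *Foxp1* among the latter (log2 fold change -1.05). Of the 14269 genes tested, edgeR called 24.1% higher and 23.8% lower in *Patz1* KO at an adjusted p below 0.05, which is the background for every count of calls that follows. In bulk RNA, fewer cells of a type and less RNA per cell cannot be told apart.

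Spinal MNs are cholinergic and arise in the ventral cord beside several classes of interneurons. Some of those interneurons release GABA or glycine and are marked by transcription factors such as *Pax2*, *Pax8* and *En1*. Such cells need transporters that take up glycine or load inhibitory transmitter into vesicles. A gene outside its usual tissue can have no reads at all or only a few. Genes of testis, retina or skin can still give a few reads in a neural culture.

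Textbook roles could be given for 16 of the 18 genes. The largest group, with 5, belongs to neuronal excitability, synapses and transmitter handling. Transcription factors give 2, secreted factors and glycogen metabolism 4, testis and cilia 4, and photoreceptors 1, and for *Fam131c* and *4930444P10Rik* no role is given. The set therefore has no single lineage: neuronal genes stand beside genes known from skin, liver, testis, kidney and retina.

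As a whole, the set went from 53 and 57 counts in the WT libraries to 817 and 585 in the *Patz1* KO libraries. On the CPM scale, with edgeR's TMM scaling of the library sizes, this was 3.56 and 3.58 in WT and 33.7 and 34.9 in *Patz1* KO. The replicates of a genotype thus carried nearly the same summed level. Single genes had mean levels of 1.04 to 8.30 CPM in *Patz1* KO (median 1.55) and 0.0629 to 0.356 CPM in WT. The ratio of *Patz1* KO over WT, taken from summed counts over TMM library sizes, went from 2.80 to 32.3, with a median of 10.3. *Cpne6* alone held 24.6% of the reads of the set in *Patz1* KO, and 15 of the 18 genes stayed under 50 counts in both *Patz1* KO libraries.

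**Figure D1:**
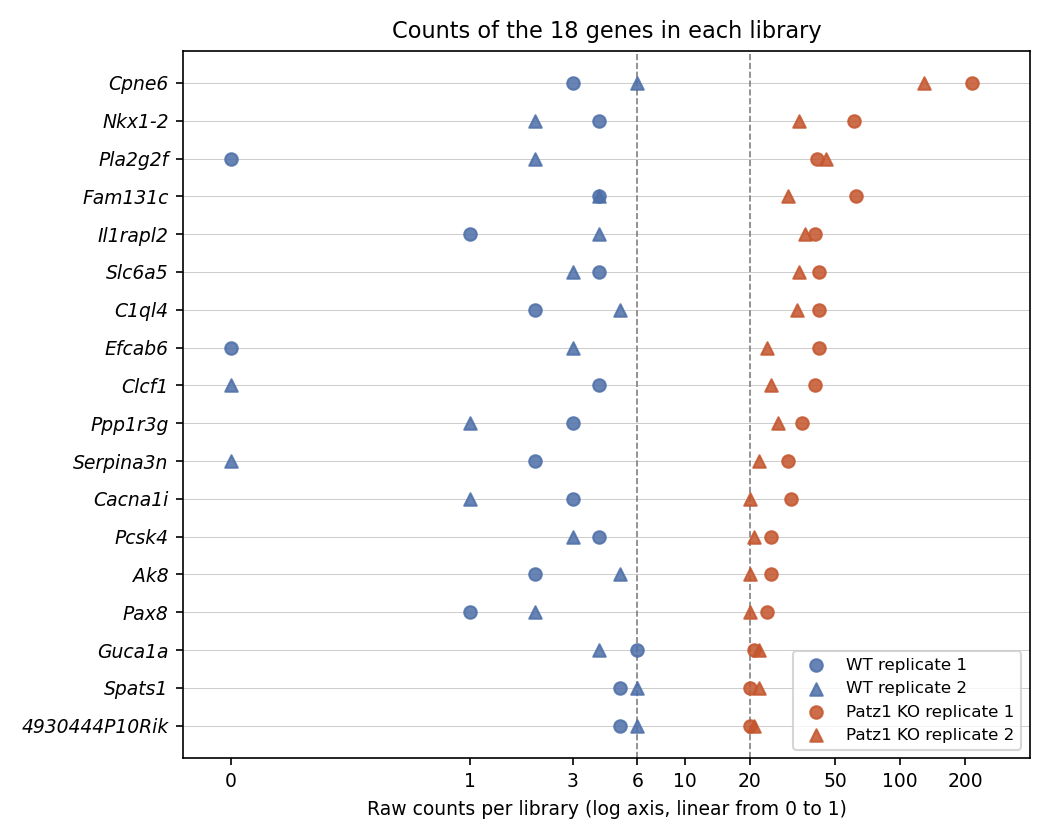
Raw counts per library (horizontal log axis, linear between 0 and 1) of the 18 genes, ordered by mean CPM in *Patz1* KO, with WT in blue and *Patz1* KO in orange, circles for replicate 1 and triangles for replicate 2. The dashed lines mark the limits of 6 and 20 counts that chose the genes. *Cpne6* stands apart with 216 and 129 counts in *Patz1* KO, and *Guca1a*, *Spats1* and *4930444P10Rik* lie close to both limits.

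*Cpne6* encodes a copine, a calcium-dependent phospholipid-binding protein found in neurons of the brain. It had 3 and 6 reads in WT against 216 and 129 in *Patz1* KO, the largest counts of the set. This was 0.289 ± 0.124 CPM in WT and 8.30 ± 0.861 CPM in *Patz1* KO (SD, n = 2 each), a ratio of 28.8 with a 95% counting interval of 15.0 to 63.5. Intervals here and elsewhere cover counting error only, and the reads carry no molecular identifiers. For ratios between the genotypes, the reads of each genotype were pooled, so differences between replicates are left out. The gene lies at chr14:55510445-55517431 on the plus strand of GRCm38, and its exons overlap no other annotated gene. It is the only one of the 18 with 100 or more counts in a library.

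*Slc6a5* encodes GlyT2, the glycine transporter of the plasma membrane of glycinergic neurons (chr7:49910146-49963856, plus strand). It had 4 and 3 reads in WT against 42 and 34 in *Patz1* KO, which corresponds to 0.228 ± 0.0564 and 1.88 ± 0.208 CPM (SD, n = 2 each). The ratio was 8.15 (95% counting interval 3.77 to 20.96). The libraries of each genotype were close to each other for this gene. *Cacna1i*, a pore subunit of low-threshold (T-type) calcium channels (chr15:80287238-80398279, plus strand), had 3 and 1 reads in WT against 31 and 20 in *Patz1* KO. *Il1rapl2*, a relative of the interleukin-1 receptor accessory proteins that act at synapses, had 1 and 4 reads in WT against 40 and 36 in *Patz1* KO. It spans 1276 kb of the X chromosome (137570608 to 138846946, plus strand). *C1ql4*, a secreted protein with a C1q domain whose family organizes synapses (chr15:99084086-99087817, minus strand), had 2 and 5 reads in WT against 42 and 33 in *Patz1* KO. In these 4 genes the lower *Patz1* KO library had 20 to 36 reads. The rule itself places this library several times above the higher WT library in every member. Together, the 5 neuronal genes summed to 0.872 and 1.19 CPM in WT and 15.3 and 15.0 CPM in *Patz1* KO.

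The sequence directly before the annotated start is shown for 3 of these neuronal genes. They were taken because a window before each of them holds the G-rich word GGGAGGG on one strand or the other. The other window of *Slc6a5* and the window of *C1ql4* do not hold this word, and *Cpne6* had no window. G-rich words were searched because PATZ1 is a zinc finger protein of G-rich DNA. Sequences are from RefSeq on GRCm38.p6, read 5′ to 3′ on the strand of the gene, cut back where needed to bases that lie in no annotated exon, and capitals mark GGGAGGG or its reverse complement. They are chr7:49910049-49910145 (plus strand) for *Slc6a5*, chrX:137570504-137570607 (plus strand) for *Il1rapl2* and chr15:80286988-80287237 (plus strand) for *Cacna1i*.
*Slc6a5*: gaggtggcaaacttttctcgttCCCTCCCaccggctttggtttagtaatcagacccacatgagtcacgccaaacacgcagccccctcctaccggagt
*Il1rapl2*: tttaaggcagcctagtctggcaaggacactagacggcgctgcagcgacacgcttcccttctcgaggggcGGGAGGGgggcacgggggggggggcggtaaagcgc
*Cacna1i*: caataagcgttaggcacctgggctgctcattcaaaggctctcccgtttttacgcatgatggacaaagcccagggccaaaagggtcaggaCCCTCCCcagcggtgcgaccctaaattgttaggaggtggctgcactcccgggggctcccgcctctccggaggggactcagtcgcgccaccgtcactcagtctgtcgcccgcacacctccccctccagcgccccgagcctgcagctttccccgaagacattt

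The 2 transcription factors are *Nkx1-2* and *Pax8*. *Nkx1-2*, a homeobox gene of the caudal epiblast and the early neural plate (chr7:132594878-132599637, minus strand), had 4 and 2 reads in WT against 61 and 34 in *Patz1* KO. This was 0.197 ± 0.101 and 2.27 ± 0.346 CPM (SD, n = 2 each), a ratio of 11.9 (95% counting interval 5.26 to 33.2). Its exons overlap *Gm16764* on the opposite strand, and 13.9% of the 50-base stretches of its transcripts are shared with that gene. *Pax8*, a paired box factor of thyroid and kidney that also marks inhibitory interneurons of the spinal cord (chr2:24420560-24475599, minus strand), had 1 and 2 reads in WT against 24 and 20 in *Patz1* KO. *Pax8* overlaps *Gm13415* on the opposite strand, with 4.43% of its 50-base stretches shared. The strand setting of the counting is not given in the sources used here, so reads of such opposite genes may have been counted with either. The window before *Nkx1-2* is shown because it carries GGGAGGG on its reverse strand and is the richest in G and C (69.6%) of the windows with that word, at chr7:132599638-132599887 (minus strand).
*Nkx1-2*: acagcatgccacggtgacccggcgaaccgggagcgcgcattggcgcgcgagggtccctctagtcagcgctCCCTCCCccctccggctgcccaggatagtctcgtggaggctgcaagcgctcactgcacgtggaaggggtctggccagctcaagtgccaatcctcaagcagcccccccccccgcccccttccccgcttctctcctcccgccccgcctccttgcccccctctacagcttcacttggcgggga

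*Clcf1*, *Serpina3n* and *Pla2g2f* encode secreted proteins and *Ppp1r3g* a regulator of glycogen. *Clcf1*, a cytokine that signals through the CNTF receptor and supports MNs (chr19:4214238-4223490, plus strand), had 4 and 0 reads in WT against 40 and 25 in *Patz1* KO. *Serpina3n*, a serine protease inhibitor known from liver and from reactive astrocytes (chr12:104406729-104414329, plus strand), had 2 and 0 reads in WT against 30 and 22 in *Patz1* KO. *Pla2g2f*, a secreted phospholipase A2 of the epidermis (chr4:138750533-138757626, minus strand), had 0 and 2 reads in WT against 41 and 45 in *Patz1* KO. These 3 genes each had 0 counts in a WT library, as did *Efcab6*, so their ratios have wide intervals. For *Pla2g2f* it was 32.3, with a 95% counting interval of 8.67 to 271, and for *Serpina3n* 19.5, with an interval of 5.14 to 165.

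*Ppp1r3g*, which targets protein phosphatase 1 to glycogen (chr13:35958839-35970388, plus strand), had 3 and 1 reads in WT against 35 and 27 in *Patz1* KO. *Pla2g2f* was also the only gene of the set whose counting interval between the *Patz1* KO libraries left out 1. Its CPM ratio of replicate 1 to replicate 2 was 0.630 (95% counting interval 0.403 to 0.984). Over all 18 genes this ratio went from 0.629 to 1.43, with 6 genes higher in replicate 1 and 12 higher in replicate 2. The lowest ratio belonged to *Spats1*, whose interval (0.326 to 1.21) held 1. The 18 intervals were not corrected for their number. *Clcf1* overlaps *AC109138.7* on the same strand (6.77% of its 50-base stretches), and *Serpina3n* shares 6.90% of its 50-base stretches with other genes, *Serpina3f*, *Serpina3g* and *Serpina3m* among them. The sequences before *Pla2g2f*, at chr4:138757627-138757848 (minus strand), and *Serpina3n*, at chr12:104406458-104406707 (plus strand), are shown as a pair that is poor in CpG, with and without the G-rich word.
*Pla2g2f*: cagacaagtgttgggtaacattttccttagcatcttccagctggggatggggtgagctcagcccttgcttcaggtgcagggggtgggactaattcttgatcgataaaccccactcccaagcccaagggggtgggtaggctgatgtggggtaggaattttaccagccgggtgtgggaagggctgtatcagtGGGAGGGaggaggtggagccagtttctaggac
*Serpina3n*: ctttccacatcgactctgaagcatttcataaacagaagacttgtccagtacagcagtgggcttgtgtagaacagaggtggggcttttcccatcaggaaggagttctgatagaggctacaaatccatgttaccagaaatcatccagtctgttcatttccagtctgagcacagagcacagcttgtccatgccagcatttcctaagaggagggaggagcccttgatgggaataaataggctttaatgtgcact

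The 4 testis and cilia genes are *Efcab6*, *Pcsk4*, *Ak8* and *Spats1*. *Efcab6*, an EF-hand protein best known from testis (chr15:83866712-84065379, minus strand), had 0 and 3 reads in WT against 42 and 24 in *Patz1* KO. *Pcsk4*, the proprotein convertase of testicular germ cells (chr10:80321283-80329498, minus strand), had 4 and 3 reads in WT against 25 and 21 in *Patz1* KO. *Ak8*, an adenylate kinase linked to cilia (chr2:28700164-28813165, plus strand), had 2 and 5 reads in WT against 25 and 20 in *Patz1* KO. Of these, *Efcab6* had the largest ratio (16.5, 95% counting interval 5.41 to 82.2), while those of *Pcsk4* (4.93) and *Ak8* (4.83) were close to each other. *Spats1*, a gene associated with spermatogenesis (chr17:45440578-45475415, minus strand), had 5 and 6 reads in WT against 20 and 22 in *Patz1* KO. Its exons overlap *B230354K17Rik* on the opposite strand, and 27.1% of its 50-base stretches are shared with other genes, the largest share of the set.

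*Guca1a* encodes a calcium-sensing activator of the guanylate cyclases of photoreceptors (chr17:47394558-47400584, minus strand). It had 6 and 4 reads in WT against 21 and 22 in *Patz1* KO, a ratio of 3.23 (95% counting interval 1.60 to 7.21). *Fam131c* (chr4:141368220-141384175, plus strand) had 4 counts in each WT library and 62 and 30 in *Patz1* KO, the highest count in a single *Patz1* KO library after those of *Cpne6*. *4930444P10Rik* (chr1:16065979-16093325, minus strand) had 5 and 6 reads in WT against 20 and 21 in *Patz1* KO, and its ratio of 2.80 was the smallest.

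Close to the limits the set shades into its surroundings. Just inside both limits lay *4930444P10Rik*, *Spats1* and *Guca1a*, given above. Symbols that failed the limit of 20 in only 1 *Patz1* KO library were ranked by their mean count in *Patz1* KO. The highest were *Gimap9* (3 and 3 counts in WT, 41 and 17 in *Patz1* KO), *Ccna1* (5 and 5 against 42 and 14) and *Grm8* (3 and 3 against 35 and 18). Symbols that failed only the limit of 6 were ranked by their mean count in WT. The lowest were *Piwil4* (8 and 0 against 35 and 24), *Hmx2* (2 and 7 against 36 and 20) and *Rgs11* (2 and 7 against 109 and 66). *Rgs11*, a regulator of G protein signalling, thus had more reads in *Patz1* KO than every member but *Cpne6* and missed the set by 1 read in a WT library.

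Of the 8392 symbols at 6 or fewer counts in both WT libraries, 7846 were at 6 or fewer in both *Patz1* KO libraries as well, and 4714 had no count in any library. The 18 genes are 0.214% of the 8392. Another 38 symbols reached 20 counts in only 1 of the *Patz1* KO libraries. With the groups exchanged, the same limits took 51 genes, or 0.218% of all symbols, which are 0.606% of the 8414 symbols at 6 or fewer counts in both *Patz1* KO libraries.

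Both numbers rest on raw counts from libraries of unequal depth, and the *Patz1* KO libraries were the deeper ones. With all libraries thinned to the smallest, 8 of the 18 genes still met the limits and the exchanged rule took 80 genes. With counts scaled to a common library size, the numbers were 11 and 70. The 8 genes left after thinning were *Cpne6*, *Nkx1-2*, *Fam131c*, *Pla2g2f*, *Il1rapl2*, *Slc6a5*, *C1ql4* and *Efcab6*. Scaling dropped *Cpne6*, because its 6 counts in WT replicate 2 then exceeded the limit. Genes near silence in *Patz1* KO only outnumbered those near silence in WT only under all 3 ways of counting, and the gap was wider with either adjustment for depth.

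**Figure D2:**
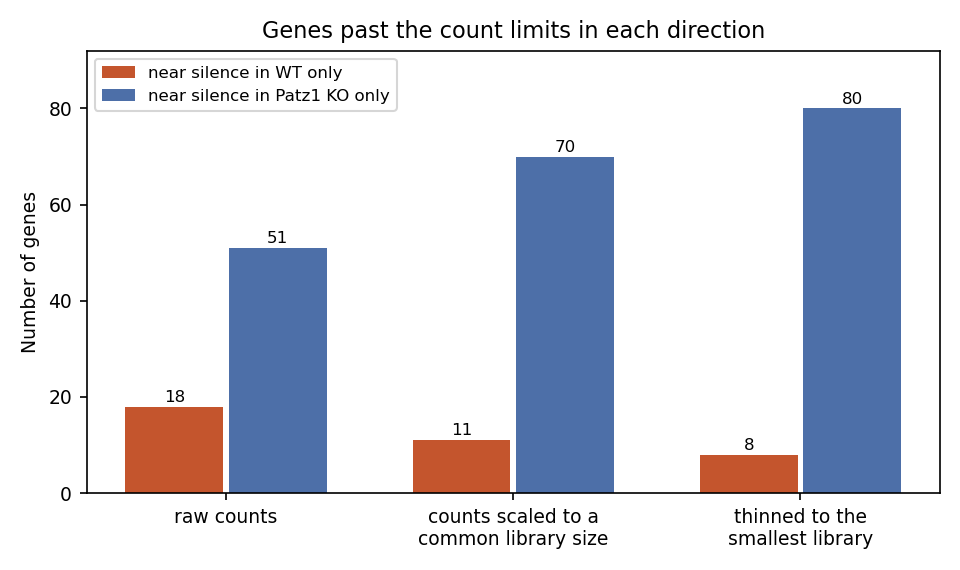
Number of genes (vertical axis) that met the limits of 20 counts in both libraries of one genotype and 6 in both of the other, for genes near silence in WT only (orange) and in *Patz1* KO only (blue). The numbers are 18 and 51 on raw counts, 11 and 70 on scaled counts and 8 and 80 after thinning to the smallest library.

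Levels between genes were compared per kb of annotated exon. In *Patz1* KO, *Cpne6* had the highest level (1.95 CPM per kb), followed by *Fam131c* (1.52), *C1ql4* (1.25) and *Guca1a* (1.25). *Pax8* (0.180 CPM per kb) and *Cacna1i* (0.125 CPM per kb) were at the low end. The median over the 14115 tested genes with a length was 5.49 CPM per kb, so even *Cpne6* stood above only 28.5% of them, and *Cacna1i* above 3.37%. On this scale the short gene *Guca1a* ranked beside *C1ql4*, although its counts were among the lowest. The 18 genes had a median exon length of 3111 bases and a median span of 13.8 kb, against 4589 bases and 25.6 kb for the 13434 tested protein-coding genes. All 18 had passed edgeR's filter on low counts, an outcome fixed beforehand by the limit of 20 counts in both *Patz1* KO libraries.

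**Figure D3:**
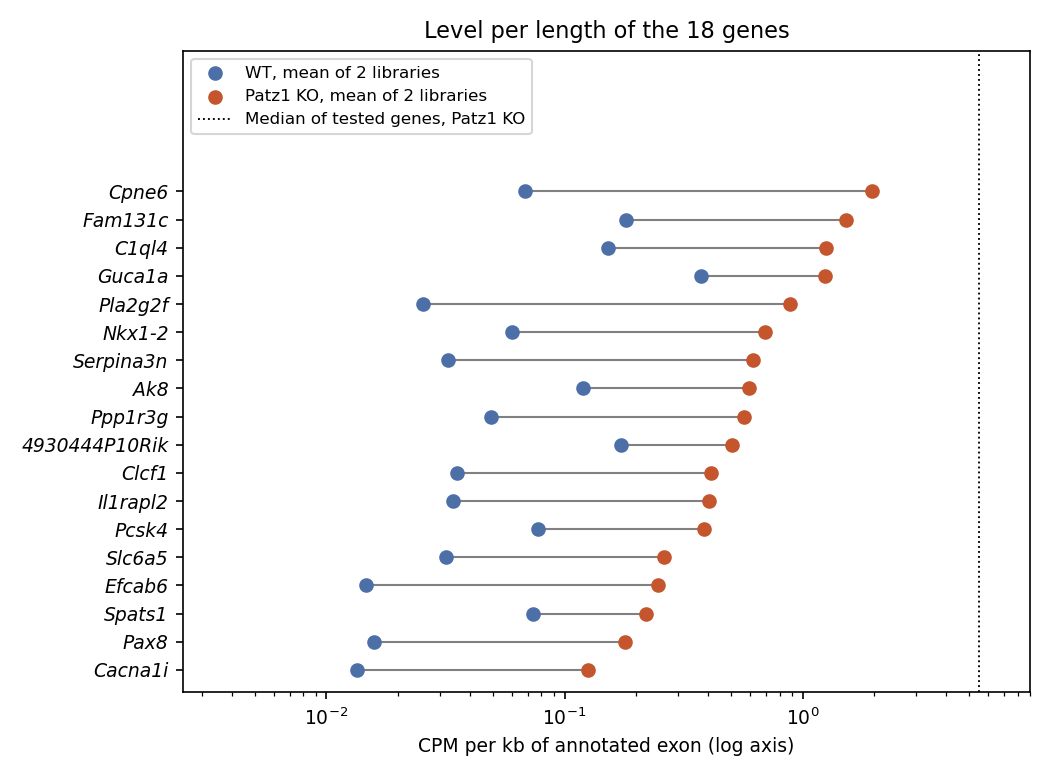
Mean level in CPM per kb of annotated exon (horizontal log axis) of the 18 genes in WT (blue) and *Patz1* KO (orange), 2 libraries each. The dotted line is the median of tested genes in *Patz1* KO, 5.49 CPM per kb, and all 18 genes lie to its left in both genotypes.

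The relatives and partners of the 18 genes were not used by the rule and could be tested. They were drawn up after the 18 genes were known, and 44 of the 72 found had enough counts. Of these, 17 were higher and 9 lower in *Patz1* KO. Relatives were therefore called in both directions.

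Among the genes of inhibitory transmission related to *Slc6a5*, 2 of 4 were higher and 0 lower. *Slc32a1*, the vesicular transporter that loads GABA and glycine, had 8 and 2 reads in WT against 83 and 51 in *Patz1* KO, close to the limits of the set itself. The rise of 3.29 on the log2 scale had a standard error of 0.45 and an adjusted p of 1.13e-05 (edgeR with Benjamini-Hochberg). *Gad1*, which makes GABA, had 9 and 8 reads in WT against 59 and 51 in *Patz1* KO (log2 fold change 2.28, standard error 0.39). *Gad2*, the other GABA-synthesizing enzyme (log2 fold change 0.37), and *Slc6a9*, the glial glycine transporter (log2 fold change 0.11), were not called. Thus *Slc6a5*, *Slc32a1* and *Gad1* shared low counts in WT and several-fold higher counts in *Patz1* KO, whereas *Gad2* was counted 31 and 35 times in WT and 65 and 48 times in *Patz1* KO.

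In the whole list of transmitter identity that holds *Slc6a5*, 6 of the other 13 tested genes were higher and 2 lower, with a median log2 fold change of 0.37 against -0.0014 over all tested genes. The smallest p belonged to *Ddc*, the decarboxylase of dopamine and serotonin synthesis, with 1131 and 1068 reads in WT against 7851 and 5498 in *Patz1* KO (log2 fold change 2.19, adjusted p = 1.03e-11, edgeR with Benjamini-Hochberg). *Dbh*, which makes noradrenaline, fell by 3.37 on the log2 scale. The vesicular glutamate transporters *Slc17a6* (log2 fold change 0.24) and *Slc17a7* (0.65) were not called, while *Slc17a8* was higher by 1.09, a call lost without WT replicate 1 and with DESeq2. In this list the inhibitory genes that were called were thus higher, and the monoamine genes were split.

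*Cacna1i* is one of 3 genes for T-type channel pores, and both others were higher. *Cacna1g* had 695 and 759 reads in WT against 2343 and 1130 in *Patz1* KO (log2 fold change 0.80, standard error 0.13), and *Cacna1h* had 537 and 553 in WT and 3197 and 1843 in *Patz1* KO (log2 fold change 1.77, standard error 0.10). On the per-kb scale in *Patz1* KO, *Cacna1h* (12.4 CPM per kb) and *Cacna1g* (8.09 CPM per kb) far exceeded *Cacna1i* (0.125 CPM per kb). The reads of *Cacna1i* therefore make up a small part of T-type transcripts in these cells. Both relatives of *Fam131c* were higher as well, *Fam131a* by 0.80 and *Fam131b* by 1.71 on the log2 scale.

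Of the receptor chains and related cytokines of *Clcf1*, 1 of 4 tested was higher and 0 lower. *Cntfr*, the receptor chain that binds the ligand, had 406 and 394 reads in WT against 1161 and 768 in *Patz1* KO (log2 fold change 0.85, standard error 0.10). The signalling chains *Lifr* (log2 fold change 0.12) and *Il6st* (-0.07) were not called. The binding chain was thus higher, and the shared chains did not pass the test. *Cntf*, the other ligand of this receptor, had 4 to 8 counts in every library and was not tested.

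For *Ppp1r3g*, 3 of the 5 other tested glycogen-targeting subunits were higher, led by *Ppp1r3c* with 27 and 31 reads in WT against 220 and 201 in *Patz1* KO (log2 fold change 2.47, standard error 0.24). *Ppp1r3b* (0.63) and *Ppp1r3d* (0.83) were the others, and both lost their call without WT replicate 1, without *Patz1* KO replicate 1 or with DESeq2, and *Ppp1r3b* also without WT replicate 2. The relatives of *C1ql4* were split, with *C1ql3* higher by 1.94 and *C1ql1* lower (log2 fold change -1.32). The relatives of *Cpne6* were split too, with *Cpne5* (0.84) and *Cpne3* (0.26) higher and *Cpne2* (-1.12) and *Cpne8* (-0.95) lower, and the call of *Cpne3* was lost without either WT library, without *Patz1* KO replicate 2, with DESeq2 and with library size alone. Of the accessory family of *Il1rapl2*, *Il1rap* was higher by 0.51, and *Il1rapl1*, its closest relative, was not called (log2 fold change -0.24).

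Other families had few reads or were split. The other genes of the *Serpina3* cluster had at most 2 counts in any library, so *Serpina3n* was the only one counted above that. *Pla2g2c* had 1 and 1 reads in WT against 7 and 7 in *Patz1* KO, and *Pla2g2a* and *Pla2g2e* had none. Among the adenylate kinases, *Ak4* of the mitochondria rose by 2.30 on the log2 scale and *Ak3* was lower (log2 fold change -0.66). Among the convertases, 1 of 8 was higher and 2 were lower. *Pax2*, which is expressed with *Pax8* in inhibitory interneurons, had 5 and 0 reads in WT against 16 and 5 in *Patz1* KO, and *Pax5* had 0 and 2 in WT and 7 and 4 in *Patz1* KO. Neither had enough counts to be tested, while *Pax6* (log2 fold change -1.05) and *Pax9* (-1.70) were lower.

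**Figure D4:**
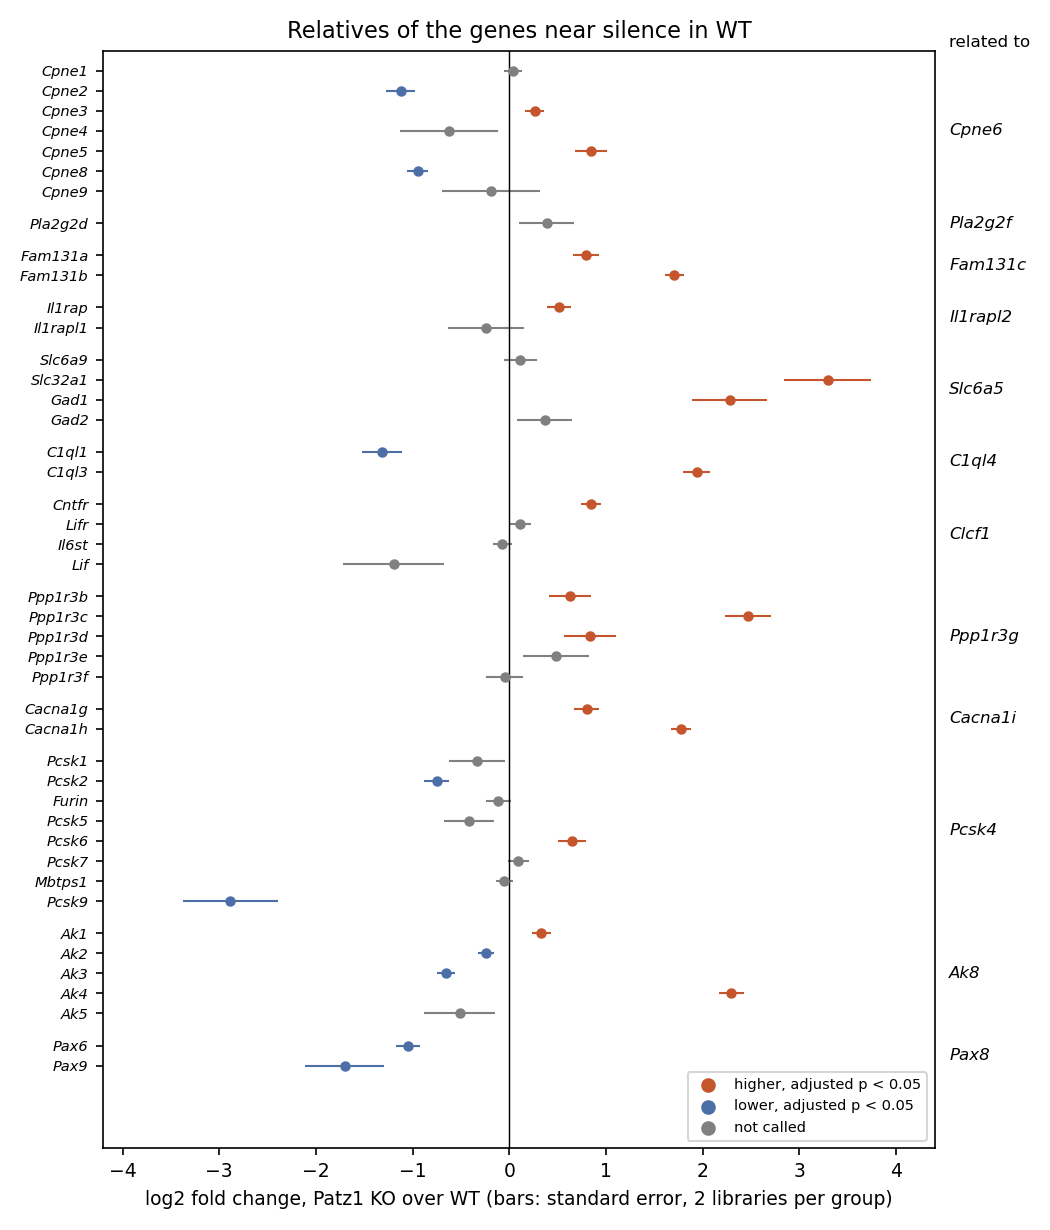
Log2 fold change of *Patz1* KO over WT (horizontal axis, with standard error bars, 2 libraries per group) of the 44 tested relatives and partners, grouped by the member named on the right. Orange marks genes called higher, blue genes called lower and grey genes not called by edgeR at an adjusted p below 0.05. *Slc32a1* has the largest rise (3.29), and both relatives of *Cacna1i* and of *Fam131c* lie above 0.

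Of 25 lists of lineages and functions, 4 held a member, and 14 of the 18 genes were in none. In the list of caudal and tail bud regulators, which holds *Nkx1-2*, 2 of the other 6 tested genes were higher and 2 lower. The 2 higher ones are also genes of differentiated spinal neurons: *Mnx1*, a defining factor of MNs, with a log2 fold change of 0.88, and *Evx1*, a factor of V0 interneurons, which had 0 and 4 reads in WT against 29 and 11 in *Patz1* KO (log2 fold change 2.82, standard error 0.75). The call of *Evx1* was lost without WT replicate 1. *Cyp26a1*, which degrades retinoic acid, and *Gdf11* were lower (log2 fold change -1.48 and -0.43). Genes of the tail bud were not all near 0. There was at most 1 count of *T*, *Cdx1*, *Cdx4*, *Msgn1* or *Fgf8* in any library and at most 2 of *Hes7*. *Cdx2* had 4 and 8 counts in WT and 0 in both *Patz1* KO libraries, and *Tbx6*, with 13 and 11 in WT and 11 and 15 in *Patz1* KO, was not called (log2 fold change -0.28).

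In the list of retina and photoreceptors, which holds *Guca1a*, 30 of the 35 other genes had too few counts to be tested, and of the 5 tested, 1 was higher and 1 lower. *Guca1b*, the closest relative of *Guca1a*, had no count in any library, and *Gnat1* and *Rcvrn* had at most 2. The summed level of 4 photoreceptor markers was 1.21 and 1.26 CPM in WT and 1.24 and 1.49 CPM in *Patz1* KO. Among these markers *Crx*, a factor of photoreceptor precursors, had 14 and 12 reads in WT against 25 and 25 in *Patz1* KO and was not called (log2 fold change 0.54). The lower gene of the list was *Rom1*, an outer segment protein (log2 fold change -0.99), a call lost without WT replicate 2, without *Patz1* KO replicate 1 and with DESeq2.

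In the kidney list, which holds *Pax8*, 4 other genes were tested and all 4 were lower. These were *Wt1* (log2 fold change -4.48), *Cubn* (-2.92), *Nphs1* (-2.06) and *Lrp2* (-0.57). Genes of kidney tubules such as *Umod*, *Aqp2* and *Slc34a1* had no count in any library. *Cubn* and *Lrp2*, which form an endocytic receptor, are also expressed in endoderm, and 4 of 6 endoderm markers were lower as well, with summed levels of 14.2 to 16.9 CPM in WT and 1.90 to 2.98 CPM in *Patz1* KO. The call of *Nphs1* was lost without WT replicate 2 and with DESeq2. The tested genes of this list were thus lower while *Pax8* had more reads in *Patz1* KO.

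Markers of further cell types were set beside the members. Of 4 astrocyte markers, *Aldh1l1* had 25 and 17 reads in WT against 276 and 101 in *Patz1* KO, a call in the higher direction (log2 fold change 2.69), while *Gfap* had 1 and 1 counts in WT and 0 in *Patz1* KO and *Aqp4* and *S100b* stayed at 15 or fewer. Their summed level was 1.95 to 2.55 CPM in WT and 6.97 to 12.2 CPM in *Patz1* KO, and its part in the counts of *Serpina3n* was not tested. All 3 epidermis markers had 3 or fewer counts in every library beside *Pla2g2f*. Of 4 germ cell markers beside *Pcsk4*, *Efcab6* and *Spats1*, 3 were tested, 0 were higher and 1 lower, with summed levels of 7.48 to 7.92 CPM in WT and 5.94 to 7.09 CPM in *Patz1* KO. The lower marker was *Dazl* (log2 fold change -1.78), a call lost without WT replicate 2.

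The wider lists for these lineages, which hold no member, were called in both directions. In the list of germline genes under promoter methylation, 10 of 26 tested genes were higher and 3 lower, with a median log2 fold change of -0.04. *Stra8*, which is needed for entry into meiosis, had 75 and 108 reads in WT against 6 and 2 in *Patz1* KO (log2 fold change -4.88). *Sohlh2*, a factor of early germ cell differentiation, had 19 and 29 reads in WT against 267 and 144 in *Patz1* KO (log2 fold change 2.66), and *Stag3*, a cohesin subunit of meiosis, was higher by 1.26. These 3 had the smallest p of the list and kept their calls under every alternative fit, while 8 of the 13 calls remained without WT replicate 2. In the list of epidermis and keratins, 1 of 9 tested genes was higher and 6 lower. The higher one, *Krt1*, had 4 and 2 reads in WT against 27 and 12 in *Patz1* KO (log2 fold change 2.23), a call lost without WT replicate 2, without *Patz1* KO replicate 1 and with DESeq2. In the list of cilia and ependymal cells, 3 of 15 tested genes were higher and 2 lower. *En1*, a factor of V1 interneurons listed here among midbrain regulators, had 10 and 9 reads in WT against 43 and 36 in *Patz1* KO (log2 fold change 1.64).

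The 18 genes were spread over the genome rather than packed together. Chromosomes 2, 4, 7, 15 and 17 held more than 1 of them, and the closest pairs were *Spats1* and *Guca1a*, 1.92 Mb apart, and *Pla2g2f* and *Fam131c*, 2.61 Mb apart. Of the nearest annotated neighbour on each side, 36 in all, 25 were tested. Of these, 28.0% were higher and 16.0% lower, against 24.1% and 23.8% of all tested genes, which is 7 and 4 genes. *Efcab6* was the member with 2 higher neighbours, *Mpped1* (log2 fold change 1.60) and *Sult4a1* (0.76). *Nrk*, beside *Il1rapl2*, had 156 and 157 reads in WT against 20 and 6 in *Patz1* KO (log2 fold change -4.00), the opposite direction to its neighbour. Next to *Slc6a5*, *Nell1* was higher by 0.64, and next to *C1ql4*, *Troap* was lower (log2 fold change -0.65), a call lost without WT replicate 1 and with DESeq2.

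RefSeq gave the 250 bases before the start of 13 of the 18 genes, in 14 windows, since *Slc6a5* has 2. *Cpne6*, *Efcab6*, *Clcf1*, *Pcsk4* and *4930444P10Rik* were without an entry. The median GC content was 60.8%, against 52.4% over 32851 windows of 27025 genes, and the median ratio of observed to expected CpG was 0.61, against 0.37. A ratio of 0.6 or more, which is usual for CpG islands, was seen in 7 of the 14 windows and in 33.95% of all windows. *C1ql4* and *Fam131c* were at the high end and *Serpina3n* and *Pla2g2f*, whose sequences are printed above, at the low end.

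GGGAGGG, searched on both strands, was found in 6 of the 14 windows (42.9%), against 19.7% of all windows. The 6 belong to *Ak8*, *Cacna1i*, *Il1rapl2*, *Nkx1-2*, *Pla2g2f* and *Slc6a5*, and 5 of them are among the sequences shown. ACGTG, the core of the word bound by hypoxia-inducible factors, was found on either strand in 4 windows (28.6%, against 16.6% of all). The windows with ACGTG are those of *Nkx1-2*, *Ppp1r3g* and *Slc6a5*, the last with both of its windows. TATAAA was found in 0 of 14 (against 12.4%). These shares are descriptions of 14 windows. The windows of all genes cover 27025 genes, against 14269 tested, and are poorer in GC (median 52.4% against 60.8%). The shares of members and of all windows are thus not like for like. They say nothing of binding, and no data on binding were analysed here.

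**Figure D5:**
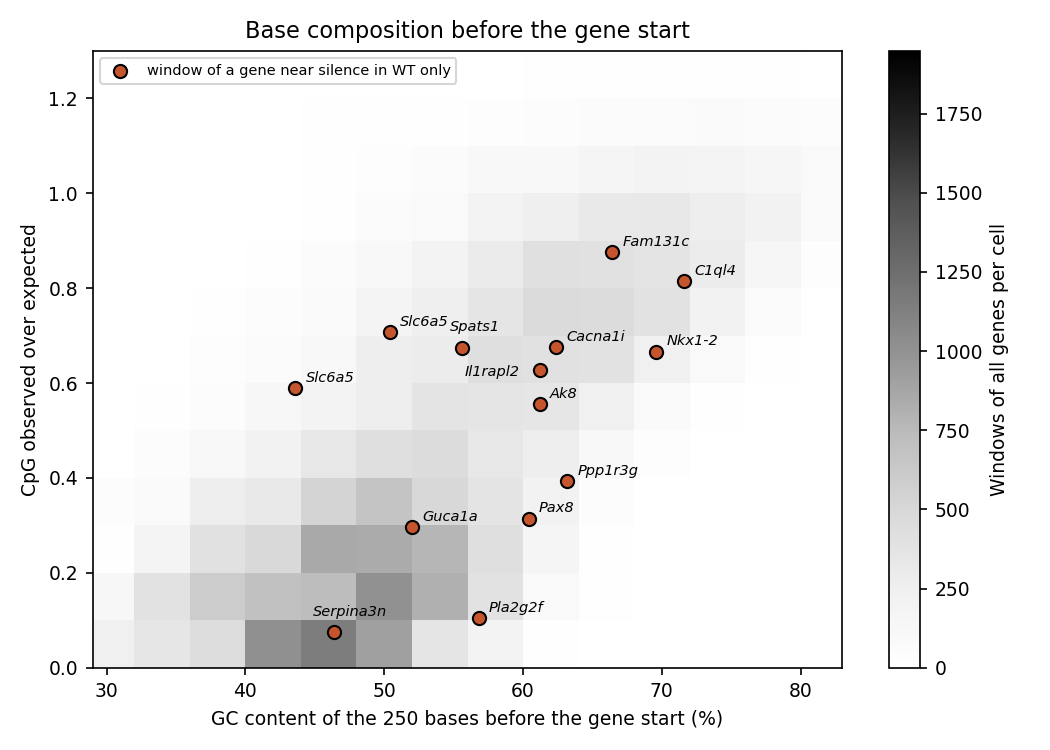
GC content in percent (horizontal axis) and ratio of observed to expected CpG (vertical axis) of the 250 bases before the gene start, with the 14 windows of the 13 members that had one in orange and the number of windows of all genes per cell in grey. Members lie in both the CpG-rich and the CpG-poor part of the plot, with medians of 60.8% GC and 0.61.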

How the data were processed

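The values are raw counts of reads per gene symbol, deposited by the authors for each library without normalization. The submitters' processing notes name TopHat2 2.1.1, Bowtie2 2.3.1, featureCounts 1.6.2, DESeq2 and the genome mm10, while the paper's methods name Bowtie 2. The annotation and strand setting are not given in the sources used here. Libraries were stranded and depleted of ribosomal RNA. The sample titles name ESCs, but source and cell type name MNs, as the paper does, and this was followed.

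Members met 20 counts in both *Patz1* KO and 6 or fewer in both WT libraries and received no test. Their ratios are those of summed counts over TMM library sizes, with a 95% counting interval, which replaced a bound at 3 counts named in the design. The members and lists were chosen with earlier results of these data known, and the relatives and roles after the members were. All other genes were tested with edgeR 4.0.16 (limma 3.58.1, R 4.3.3), a quasi-likelihood fit with TMM scaling on the 14269 genes passing filterByExpr (minimum count 10), with Benjamini-Hochberg adjusted p called below 0.05. The fit was tested on simulated data, where 186 of 194 changed genes among 14141 were recovered with 5 false calls. That simulation gave all genes the same dispersion and changed far fewer genes than were called in the data. It therefore does not measure the false calls in the data. Replicates differed by more than sampling noise (chi-square per gene 9.87 in WT and 22.0 in *Patz1* KO), and the common biological coefficient of variation was 7.71%.

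Positions, exon lengths, overlaps and shared stretches of 50 bases came from GENCODE M21 (GRCm38), which matched 22983 of 23420 symbols and all 18 members, and windows of 250 bases before gene starts from RefSeq (GRCm38.p6). Shares and plots used Python 3.11.15, numpy 2.4.6, pandas 2.3.3, scipy 1.17.1 and matplotlib 3.10.9. The naming rule allowed every member, *Patz1*, markers and the 3 symbols outside each limit that came first when ranked by mean count. It also allowed, per discussed list, the 3 genes with the smallest p, and neighbours with an adjusted p below 0.05. The relatives, *Slc17a6*, *Slc17a7*, *Slc17a8*, *Krt1*, *Crx*, *Rom1*, *Tbx6*, *Cdx2*, *En1*, *Evx1*, *Umod*, *Aqp2*, *Slc34a1* and further list genes at or near 0 were named after their values were seen. Alternatives were DESeq2 1.42.0 size factors and Wald test, library size alone, no filter on low counts, the replicate number as a block, other count limits, thinning to 14769104 counts, counts scaled to a common size, and leaving out each library. Some genes of these lists are not reported here. Other data of the study were not analysed here.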

Additional observations from a re-analysis of the deposited data

How the results depend on the processing

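The size of the set followed the limits and the depth. It was 8 after thinning, 11 with scaled counts, 87 with a limit of 10 in *Patz1* KO, 2 with a limit of 40 (*Cpne6* and *Pla2g2f*), 6 with a limit of 3 in WT, 96 with a limit of 12, and 25 to 48 when the limits were asked of all but 1 library. Leaving out genes with exon overlap gave 14, and keeping all names gave 18. The exchanged rule, added after the data were seen, gave 80 genes after thinning and 70 with scaled counts. Over all genes, fits without 1 library called 2346 to 3985 genes higher and 2175 to 3831 lower, the fewest without WT replicate 2. Such fits leave a group with 1 library, which is assumed to vary like the other group. With the replicate block, 3712 genes were higher and 3651 lower. Deviations of WT and *Patz1* KO replicates with the same number had a correlation of 0.03 over tested genes. With 2 libraries per genotype, this cannot settle whether such replicates were paired. The Wald test of DESeq2 called 2672 higher and 2444 lower. Another scaling moved the mean level of no member by more than 1.58% or 1 SD. Of the 26 relatives called, 22 kept their call under the Wald test, 26 with the replicate block and 21 to 25 without 1 library, and 0 changed sign. The cause of these changes was not tested. Counts under 50 and 2 libraries per genotype limit what the values of a single member can show.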

Other observations

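With the limit in WT raised from 6 to 12 counts, 78 further genes had 20 or more counts in both *Patz1* KO libraries. They were chosen by the same counts and received no further test, and the genes named here were picked after their values were seen. Several belong to inhibitory interneurons or to neurons in general: *Slc32a1* and *Gad1* were given above, and *Skor1*, a corepressor of spinal interneurons, had 9 and 7 reads in WT against 73 and 53 in *Patz1* KO. *Olfm3*, a secreted olfactomedin, had 11 and 11 reads in WT against 80 and 47 in *Patz1* KO. *Foxd3*, a factor of neural crest and of V1 interneurons, had 10 and 9 reads in WT against 82 and 63 in *Patz1* KO.

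Other genes of the wider set belong elsewhere. *Psmb8* and *Psmb9*, subunits of the immunoproteasome that are neighbours in the genome, were both in it. *Psmb8* had 7 and 7 reads in WT against 107 and 61 in *Patz1* KO, and *Psmb9* had 8 and 10 against 79 and 56. *Adm*, a peptide hormone gene induced by low oxygen, had 9 and 10 reads in WT against 69 and 80 in *Patz1* KO. *Mgarp*, a mitochondrial protein also induced by low oxygen, had 10 and 9 in WT against 89 and 93 in *Patz1* KO. The germline genes *Piwil4* (8 and 0 against 35 and 24) and *Tex12* (7 and 6 against 28 and 23) were near the limits.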
